A study of Mus musculus with 6 samples.

Results

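The genes described here are the mouse genes of the proteasome, chosen by name: every gene whose single symbol in the platform's annotation begins with Psma, Psmb, Psmc, Psmd, Psme or Psmg followed by a digit (the rule also allows Psmf, for which no probe set was found). This gave 46 genes with 58 probe sets, of 8251 genes named on the arrays. Of the 46, 44 encode a subunit, a regulator or an assembly factor of the proteasome. The other two matched by name alone: Psmc3ip encodes a partner protein of meiotic recombination factors, and Psme3ip1 encodes a protein that binds the activator Psme3. Total RNA of mouse liver had been hybridised to 6 one-colour arrays, with 3 genotypes, 2 circadian times and a single array in each of the 6 groups. In circadian time, which is read without outside light cues, hour 0 opens the animal's subjective day, so CT02 (2 h) is its early day and CT14 (14 h) its early night. The wild type mice had a C57BL/6 background, the Clock mutant mice carried a mutation of the clock transcription factor gene Clock, and the Cry-deficient mice lacked cryptochromes, the repressors of that factor. The Cry-deficient CT02 array was described as coming from a double knockout of Cry1 and Cry2, the Cry-deficient CT14 array only as Cry deficient. All mice were males 8 to 10 weeks old. The strain of the mutants, the Clock allele and whether a sample pooled several mice are not stated in the labels.

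The proteasome is the protease that breaks down proteins tagged with ubiquitin. Its 20S core is a barrel of alpha and beta rings with the catalytic sites inside, and its 19S cap has a base, whose ATPases unfold the substrate and feed it into the barrel, and a lid, which removes the ubiquitin. In immune cells, and in other cells after interferon, the catalytic beta subunits Psmb5, Psmb6 and Psmb7 can be replaced by the immune subunits Psmb8, Psmb9 and Psmb10, which changes the peptides made for antigen presentation. In liver the proteasome removes short-lived proteins, among them the clock's own period and cryptochrome proteins.

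Each group is a single array without a replicate, so no test was made, and every ratio below compares single arrays. Values are scaled units, the deposited intensity after each array was brought to a common scale, and a log2 ratio is of these. A value under the pooled median of all probe sets (606.2 scaled units, called the floor) was set to it. A gene was kept if the mean of its brightest probe set reached the floor, as in 4844 of the 8251 genes. The mean deposited intensity of the arrays ranged from 1637 to 2486, lowest on the Clock mutant CT02 array, which stood apart also by its scale offset of -0.43 (log2), against -0.00 to 0.20 on the others. The 3' to 5' ratio of the beta-actin control probes was 2.68 on that array and 1.70 on the Cry-deficient CT02 array, against 0.84 to 1.15 on the other 4. That of GAPDH was 0.56 to 0.72 except on the Cry-deficient CT02 array, where it was 2.37. That of pyruvate carboxylase was 17.7 to 25.3 on the CT02 arrays and 3.96 to 7.14 on the CT14 arrays, so it moved with time in all 3 genotypes. Of 8 hepatocyte markers found, 7 or 8 were above the floor on each array, and of 3 bile duct markers none was. The clock gene Per2, a target of Clock, read 251 and 4058 in wild type (CT02, then CT14), 651 and 778 in Clock mutant liver and 3071 and 2665 in Cry-deficient liver. In whole tissue, fewer cells of a type and less RNA per cell cannot be told apart.

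Of the 46 proteasome genes, 42 were kept, and 39 of these were above the floor on all 6 arrays. The 4 below it were Psmc3ip, the ATPase Psmc4, the base scaffold Psmd2 and the assembly factor Psmd10. Psmc3ip was negative on every array, Psmd2 read 104 to 557 and Psmd10 read -87 to 441, so nothing can be said of their differences. Of the kept genes, Psmd12 was above the floor on 5 arrays, Psmg3 on 4 and Psmg2 on 2. Psmg2 and Psmg3 passed only through the Clock mutant arrays, on which they were high. A single probe set measured 38 of the 46 genes, and several measured the other 8. The probe sets with the paired symbols Psme2b and Psme2 (2 in number) were not used, so Psme2, the partner of Psme1, has no value here.

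Proteasome genes differed little between the 6 livers. The range of a gene over the arrays, highest over lowest, had a median of 0.54 (log2), or 1.45-fold, in the 42 kept genes, against 0.83, or 1.77-fold, in all 4844 genes. In the 918 other genes whose mean level lay between the quartiles of the proteasome genes' levels (3935 to 9025 scaled units), the median range was 0.70. Of the proteasome genes, 54.8% stayed within 1.5-fold over all 6 arrays, against 28% of all genes and 37.7% of those of like level. Other housekeeping complexes had ranges of the same size: the median was 0.52 in 23 kept genes of cytosolic ribosomal proteins and 0.52 in 62 kept genes of oxidative phosphorylation subunits.

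The classes of subunit differed in this range. It was smallest in the alpha ring of the core (median 0.35 in 7 genes), followed by the constitutive beta subunits (0.50 in 7 genes) and the base proteins without ATPase (0.56 in 2 genes). The ATPases had a median range of 0.65 (5 genes), as did the assembly chaperones (0.65 in 6 genes). The lid (0.76 in 8 genes), the immune subunits (0.84 in 3 genes) and the activators (0.90 in 3 genes) varied most. The classes also differed in level. A gene's mean ran from 3751 to 19419 scaled units in the alpha ring and from 873 to 9827 in the lid. It ran from 1214 to 4271 in the immune subunits and from 1658 to 6391 in the activators. The part of level in these ranges was not tested. Psma5, a structural alpha subunit, had the smallest range, 0.17. Its values were 7399 and 6692 scaled units in wild type (CT02, then CT14), 6997 and 6861 in Clock mutant liver and 7551 and 6754 in Cry-deficient liver. The largest range, 2.02, was that of Psmg3, an assembly chaperone of the core, described with its probe sets below.

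**Figure D1:**
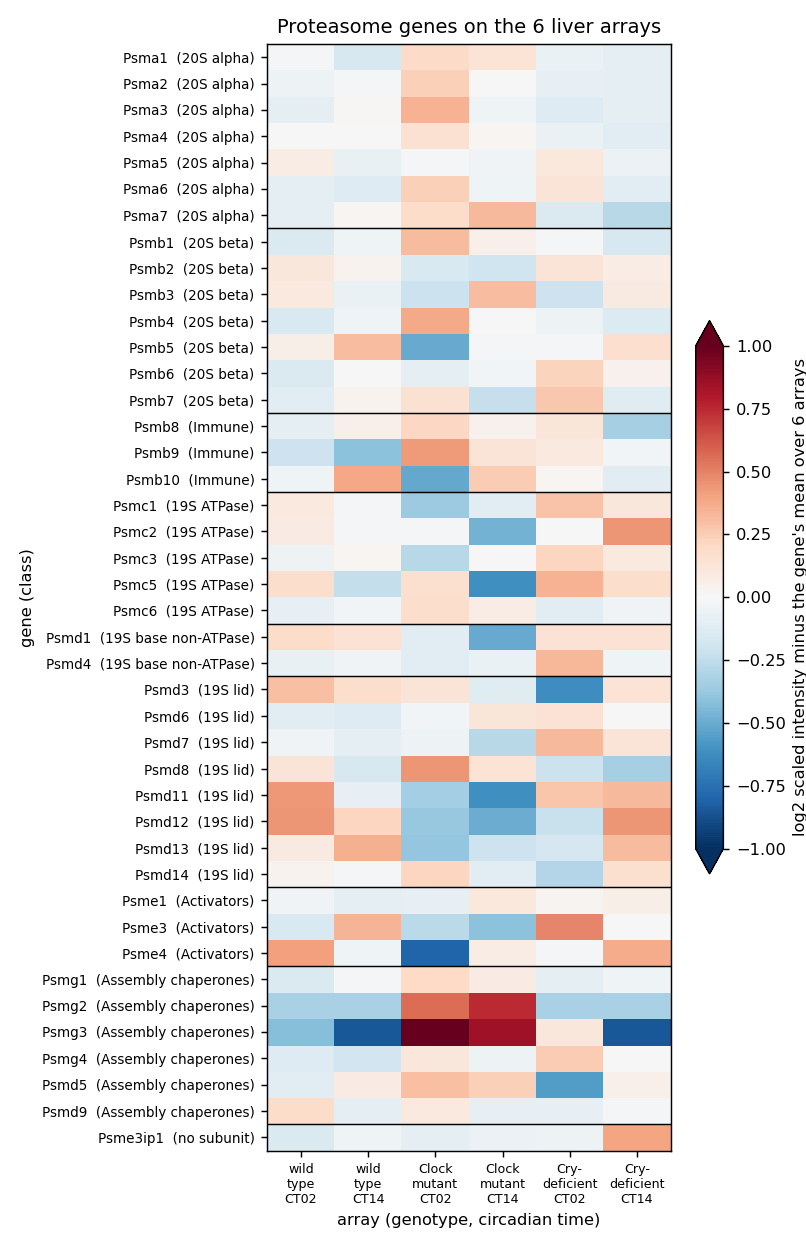
The 42 kept proteasome genes (rows, grouped by class) on the 6 arrays (columns), coloured by log2 scaled intensity minus the gene's mean over the arrays, with values below the floor set to it. The alpha ring is pale throughout, while the Clock mutant columns are red for Psmg2 and Psmg3 and blue for Psmd11 and Psmd12.

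The first question the design poses is what differs between early day and early night in a liver with an intact clock. In wild type, 0 of the 42 proteasome genes were 1.5-fold apart between CT14 and CT02, where 14.6% of all genes and 10.9% of those of like level were. Their median log2 ratio of CT14 over CT02 was -0.03, with 19 higher and 22 lower at CT14. The ratios ran from -0.51 to 0.50. The largest belonged to a lid subunit and a pair of activators.

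The lid scaffold subunit Psmd11 had the lowest ratio, 12817 scaled units at CT02 and 8972 at CT14, a log2 ratio of -0.51. A second probe set of Psmd11 read 9213 and 5803, a ratio of -0.67, which is past 1.5-fold. The count of 0 thus rests on the brightest probe set of each gene. The nuclear activator Psme3, which opens the core without ubiquitin, had the highest: 1451 at CT02 and 2046 at CT14, a ratio of 0.50. Another nuclear activator, Psme4, read 5869 and 4290, a ratio of -0.45. The immune subunit Psmb10 came after Psme3 among the higher ones, 3423 at CT02 and 4610 at CT14, or 0.43.

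Promoters were searched for the E-box CACGTG, the binding sequence of Clock and its partner, in the RefSeq window from 250 bases before to 50 bases after each start. Of the 46 genes, 39 had such a window. The E-box, which reads the same on both strands, was found in 5 of them (12.8%), against 8.09% of all 27025 genes with a window. These 5 include the highest wild type ratios of the family, Psme3 and Psmb10, and their sequences are shown for that reason. Each is 60 bases on the strand of the gene (assembly GRCm38.p6), with the E-box in capitals: Psme3 at chr11:101316142-101316201 (plus strand), Psmb10 at chr8:105938476-105938535 (minus), Psma4 at chr9:54950692-54950751 (plus), Psmd9 at chr5:123228112-123228171 (plus) and Psme3ip1 at chr8:94601837-94601896 (minus).
Psme3: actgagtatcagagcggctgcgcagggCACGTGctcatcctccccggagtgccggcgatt
Psmb10: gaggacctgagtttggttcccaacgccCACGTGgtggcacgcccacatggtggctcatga
Psma4: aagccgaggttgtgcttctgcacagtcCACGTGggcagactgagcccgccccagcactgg
Psmd9: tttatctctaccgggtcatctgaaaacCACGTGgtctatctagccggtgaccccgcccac
Psme3ip1: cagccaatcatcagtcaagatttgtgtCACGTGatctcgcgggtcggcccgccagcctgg

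The E-box began 44 bases before the start of Psme3 and 51 before that of Psmd9, and lay farther out in Psmb10 (116), Psma4 (140) and Psme3ip1 (143). In wild type the log2 ratios of CT14 over CT02 were 0.50 for Psme3, 0.43 for Psmb10, 0.10 for Psme3ip1, 0.01 for the alpha subunit Psma4 and -0.27 for the base assembly chaperone Psmd9. The median of the 5 was 0.10, against -0.05 in the 30 other kept genes with a window. So the genes with an E-box included both a high and a low time ratio. In the Clock mutant the ratio was -0.15 for Psme3 and 0.77 for Psmb10, and in the Cry-deficient arrays -0.48 and -0.13. A match is a description of the letters and not a site of binding.

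The other motifs, 4 in number, were searched in the same way on both strands. The antioxidant response element core TGACNNNGC, bound by Nfe2l1 and Nfe2l2, was in 6 windows (15.4%, against 14% of all genes): Psmb5, Psmb6, Psmc6, Psmd9, Psmd12 and Psme4. The CCAAT box was in 15 (38.5%, against 41.1%) and the heat shock element GAANNTTC in 2 (5.13%, against 9.04%). The interferon-stimulated response element GAAANNGAA was in 7 (17.9%, against 9.76%), among them Psme1, whose protein is an interferon-induced activator, but in none of the 3 windows of the immune subunits.

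In the Clock mutant, the median ratio of CT14 over CT02 was -0.12, with 14 genes higher and 28 lower at CT14. The median was 0.0 in all genes and 0.04 in those of like level. With a filter at the 75th percentile it was -0.05 in all genes so kept and -0.12 in the proteasome genes. At least 1.5-fold apart were 3 of 42 against 22.6% of all genes and 15.1% of those of like level; 2 were higher (12.7% of all genes) and 1 lower (9.87%). The activator Psme4 read 2524 scaled units at CT02 and 4632 at CT14, a ratio of 0.88. The immune subunit Psmb10 read 2471 and 4202, or 0.77. The ATPase Psmc5 went the other way, 5340 at CT02 and 3119 at CT14, or -0.78. Both higher genes had their lowest value of the 6 arrays on the Clock mutant CT02 array, and Psmc5 had its lowest on the Clock mutant CT14 array. The part of the Clock mutant CT02 array's offset and actin ratio in these values was not tested.

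In the Cry-deficient arrays, the median ratio was -0.05, with 16 genes higher and 25 lower at CT14. The median was 0.0 in all genes and 0.01 in those of like level. With the filter at the 75th percentile it was -0.03 in all genes so kept and -0.05 in the proteasome genes. At least 1.5-fold apart were 4 of 42 against 16% of all genes and 11.4% of those of like level. Of these 3 were higher (9.6% of all genes) and 1 lower (6.42%). The 3 higher genes all belong to the 19S cap or its assembly. Psmd3, a lid scaffold, read 2851 scaled units at CT02 and 4824 at CT14, a ratio of 0.76. Psmd12, also a lid scaffold, read 735 and 1167, or 0.67, close to the floor. Psmd5, a chaperone of base assembly, read 2824 and 4295, or 0.60. The lower gene was Psmg3, 1180 at CT02 and below the floor at CT14, at least 1.95-fold lower.

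Psmd3 and Psmd5 had their lowest values of the 6 arrays on the Cry-deficient CT02 array, whose wild type counterparts read 5416 and 3838. Over the 8 lid genes the median ratio was 0.26 in the Cry-deficient arrays, with 5 higher at CT14. It was -0.09 in wild type, with 1 higher, and -0.24 in the Clock mutant, with 2 higher. The raised actin and GAPDH ratios of the Cry-deficient CT02 array and the pyruvate carboxylase ratios, higher at CT02 than at CT14 in each genotype, stand beside this result, and their part in it was not tested.

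The 3 time comparisons use no array in common. Of the 42 genes, 11 (26.2%) were lower at CT14 in all 3 genotypes, where 13.4% of all genes were, and 3 (7.14%) were higher in all 3, against 13% of all genes. The 11 came from every level of the particle except the activators: Psma1, Psma5 and Psma6 of the alpha ring, Psmb2 and the immune Psmb9 of the beta ring, Psmc5, Psmd1, Psmd7 and Psmd8 of the cap, and the chaperones Psmg3 and Psmg4. Psmg3 was lower by its brighter probe set, while its other probe set read -68 at CT02 and 888 at CT14 in wild type. The 3 higher were Psmb5, Psmd13 and Psme3ip1. Of these 14, none was 1.5-fold apart in all 3 genotypes, a size that 0.103% (lower) and 0.186% (higher) of all genes reached. With only the brighter genes kept (a filter at the 75th percentile), ratios were taken relative to the median of the genes so kept. That median was -0.00 in wild type, -0.05 in the Clock mutant and -0.03 in the Cry-deficient arrays. The count lower in all 3 was then 5 of 36, where 15% of all genes so kept were lower in all 3. Psmb9 and Psmg3 fell to the filter. Psma5 and Psmb2 (-0.03 and -0.05 in the Clock mutant) were not below that median. Nor were Psma1 and Psmd1 (-0.02 and -0.00 in the Cry-deficient arrays). The 3' to 5' ratio of the pyruvate carboxylase control was higher at CT02 than at CT14 in each genotype, as these 11 genes were, and its part in their values was not tested.

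Psmb5, which carries the chymotrypsin-like activity, was the one of these 3 with several probe sets. Its brighter probe set read 12820 and 15228 scaled units in wild type (CT02, then CT14), 8671 and 12213 in Clock mutant liver and 12258 and 13855 in Cry-deficient liver. Its other probe set read 3673 and 4331, 4139 and 5726, and 3359 and 3788. Both probe sets were higher at CT14 in each genotype, with log2 ratios of 0.25 and 0.24 in wild type, 0.49 and 0.47 in Clock mutant liver and 0.18 and 0.17 in Cry-deficient liver.

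**Figure D2:**
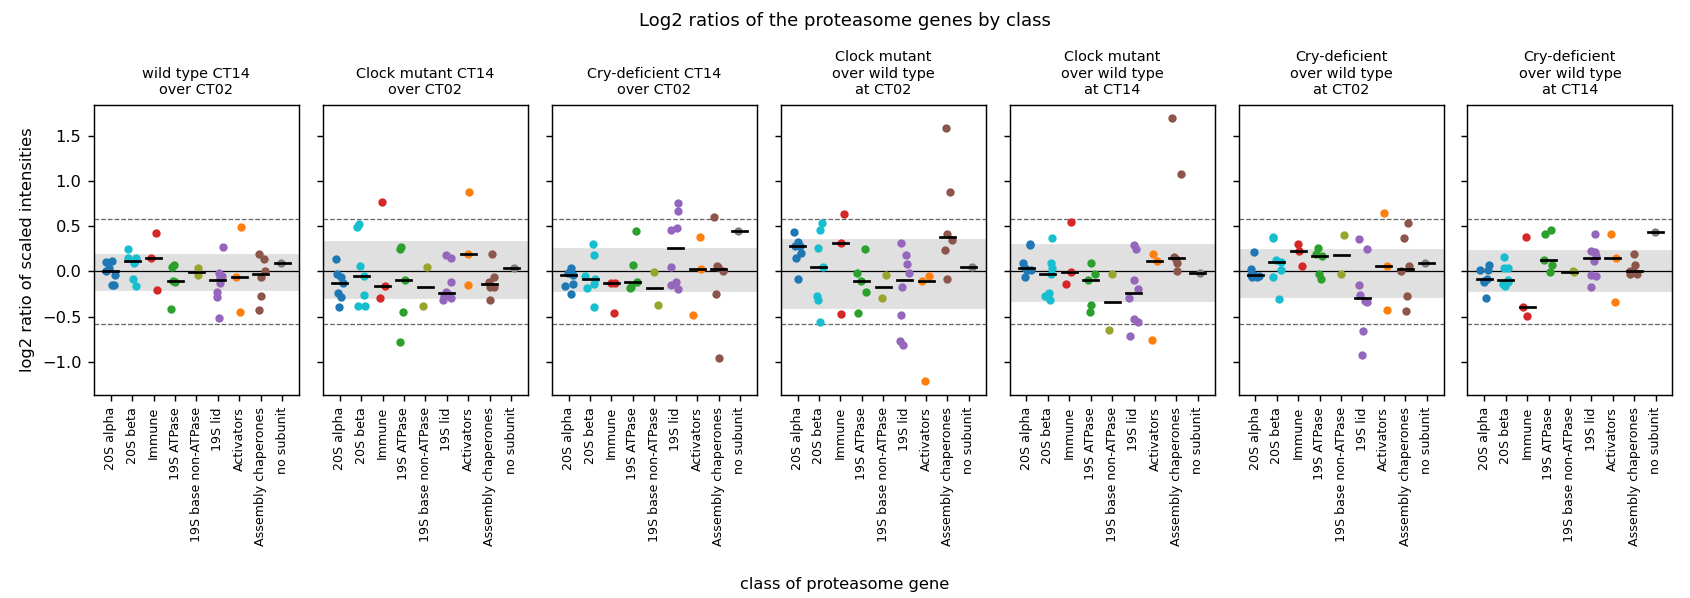
Log2 ratios of the 42 kept proteasome genes (points) by class in the 7 comparisons, with the class median as a short bar, the middle 50% of all 4844 genes as a grey band and 1.5-fold as dashed lines. In wild type over time and in Cry-deficient over wild type at CT14 every point lies within the dashed lines, and the points above 1.0 in the Clock mutant panels are Psmg3 and Psmg2.

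The next question is how the Clock mutant liver differed from wild type at each time. The median ratio of the 42 genes was 0.05 at CT02 and -0.00 at CT14. At CT02, 6 were at least 1.5-fold apart, against 30.8% of all genes and 24.1% of those of like level. Of these 3 were higher (12.9% of all genes) and 3 lower (17.9%). At CT14, 5 were, against 25.6% and 22.4%, with 2 higher (12.2% of all genes) and 3 lower (13.4%). At least 2-fold apart were 2 of 42 at CT02, against 11.8% of all genes, and 2 at CT14, against 9.76%. The medians of the proteasome genes thus sat close to the centre of all genes.

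The core's assembly chaperones Psmg2 and Psmg3 were the only members at least 1.5-fold higher in the Clock mutant at both times, 4.76% of the members against 4.05% of all genes. Both passed the filter only through the Clock mutant arrays, so nothing is read from that share. Psmg2 read 356 and 400 scaled units in wild type, 1118 and 1278 in Clock mutant liver and 376 and 466 in Cry-deficient liver. It was thus at least 1.84-fold higher than wild type at CT02 and at least 2.11-fold higher at CT14, measured against the floor. Psmg3 read 816 and 87 in wild type, 2456 and 1970 in Clock mutant liver and 1180 and -119 in Cry-deficient liver, 3.01-fold higher at CT02 and at least 3.25-fold at CT14. A second probe set of Psmg3 did not show this: it read -68 and 888, -154 and -715, and -296 and 369, with its lowest value on the Clock mutant CT14 array. The brighter Psmg3 probe set carries the letter r in its name, which marks a set that did not meet the maker's usual rules for probe choice.

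Psmd12, the lid scaffold, was the only member at least 1.5-fold lower in the Clock mutant at both times (2.38% of members, against 5.43% of all genes). Its values were 1163 and 996 scaled units in wild type, 659 and 518 in Clock mutant liver and 735 and 1167 in Cry-deficient liver. The log2 ratio was -0.82 at CT02, and at CT14 the gene was at least 1.64-fold lower, since its Clock mutant value was below the floor. The only probe set of Psmd12 is marked f, for sequence shared within a gene family. The activator Psme4 was 2.33-fold lower at CT02, with 5869 in wild type and 2524 in the mutant, and at CT14 read 4290 and 4632, a ratio of 0.11. Psme3 was lower at CT14, with 2046 in wild type and 1213 in the mutant (-0.75), and at CT02 read 1451 and 1343 (-0.11).

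Psmd1, the large scaffold of the base, read 4937 and 4811 scaled units in wild type, 4018 and 3078 in Clock mutant liver and 4827 and 4812 in Cry-deficient liver. The Clock mutant arrays were the lowest of the 6, with ratios to wild type of -0.30 at CT02 and -0.64 at CT14, and the other 4 arrays lay close together. Psmd13, a structural lid subunit, read 4008 and 4829, 2880 and 3266, and 3356 and 4679, with ratios of -0.48 and -0.56. Each of these genes was measured by 1 probe set.

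Both Clock mutant arrays lay above all 4 others in 13 of the 42 genes (31%), where 16.9% of all genes and 15.5% of those of like level did so. Both lay below all 4 others in 9 (21.4%), against 16.5% and 21.1%. The genes on the high side were Psma1, Psma2, Psma4 and Psma7 of the alpha ring, Psmb1, Psmb4 and Psmb9 of the beta ring, Psmc6 and Psmd8 of the cap, and the chaperones Psmd5, Psmg1, Psmg2 and Psmg3. On the low side were Psmb2, Psmb5, Psmc1, Psmc2, Psmd1, Psmd11, Psmd12, Psmd13 and Psme3. So 4 of 7 alpha genes were on the high side and none on the low side, while 3 of 8 lid genes were low and 1 was high. Psmg2 and Psmg3 passed the filter only through the Clock mutant arrays, since the mean of their other 4 arrays was 400 and 491, below the floor, so the filter fixed their place on the high side. With genes kept by the mean of those 4 arrays instead, a filter chosen after seeing the data, 11 of 40 were on the high side (27.5%, against 15.3% of all genes) and 9 on the low side (22.5%, against 16.8%).

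Most of these separations were small. In the alpha ring, the mean of the Clock mutant arrays over that of the other 4 was 1.18-fold for Psma1, 1.13-fold for Psma2, 1.09-fold for Psma4 and 1.30-fold for Psma7. Psma7 read 7968 and 8615 scaled units in wild type, 9655 and 10639 in Clock mutant liver and 7712 and 7025 in Cry-deficient liver. With the deposited intensities left unscaled, the Clock mutant CT02 array being dimmer there, only Psmg2 and Psmg3 were on the high side (3.91% of all genes did). Without the Clock mutant CT02 array, the CT14 array alone lay above the 4 arrays of the other genotypes in 15 genes (35.7%, against 28% of all genes) and below them in 12 (28.6%, against 27.8%).

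**Figure D3:**
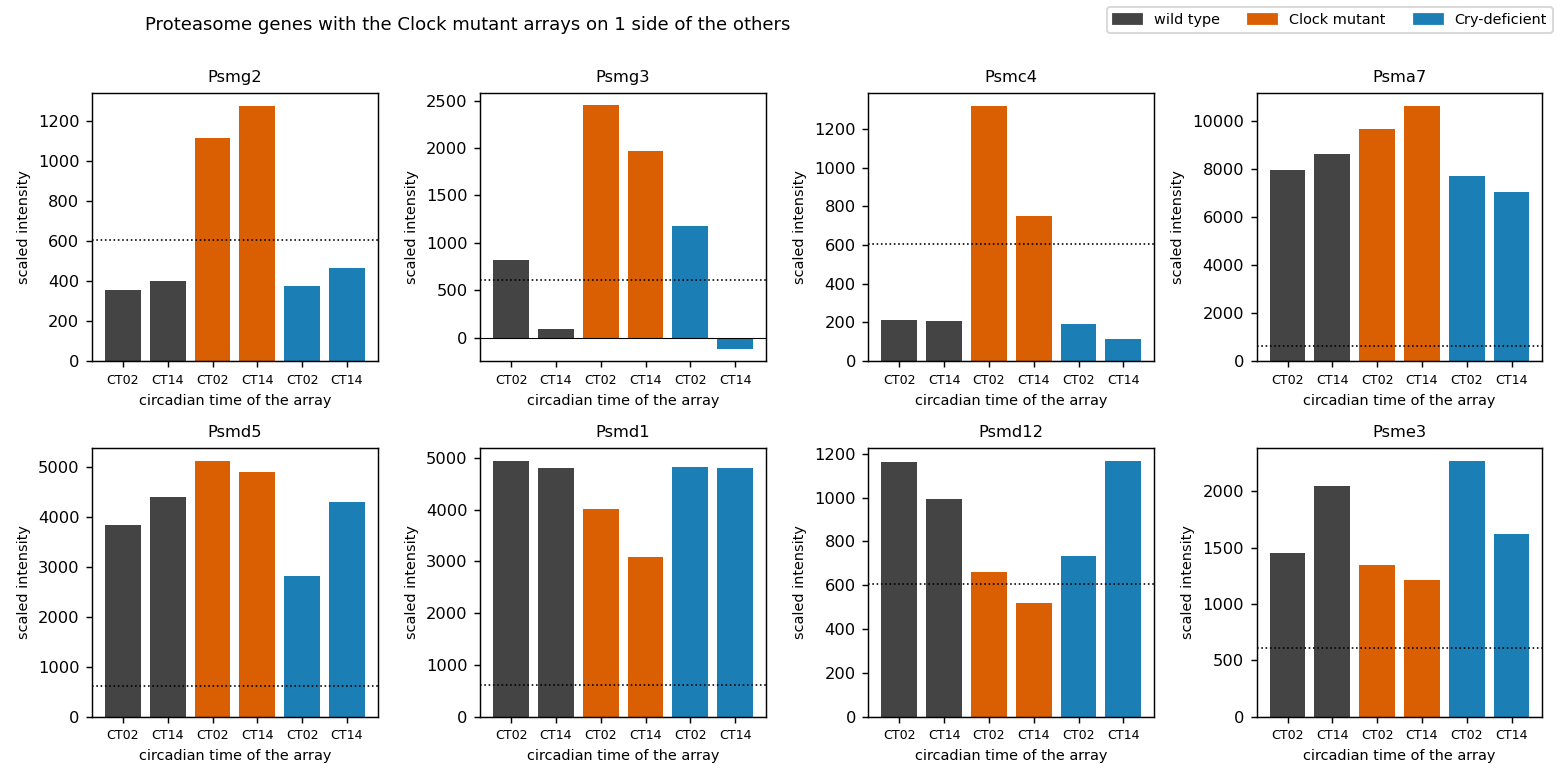
Scaled intensity of 8 proteasome genes on each array (bars, coloured by genotype, from 0), with the floor of 606.2 as a dotted line. Psmg2, Psmg3, Psmc4, Psma7 and Psmd5 have both Clock mutant bars highest, and Psmd1, Psmd12 and Psme3 have both lowest, while for Psmg2 and Psmc4 the other 4 bars are below the floor.

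The ATPase Psmc4, left out because its mean was below the floor, had the same outline as Psmg2. It read 213 and 209 scaled units in wild type, 1322 and 750 in Clock mutant liver and 192 and 116 in Cry-deficient liver. Only the Clock mutant arrays were above the floor, so the gene was at least 2.18-fold higher than wild type at CT02 and at least 1.24-fold at CT14.

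Where 2 probe sets of a gene were both above the floor, they could be set against each other, and for some genes they disagreed in the Clock mutant. For Psmb5 the brighter probe set gave a ratio of Clock mutant over wild type of -0.56 at CT02 and -0.32 at CT14, and the other gave 0.17 and 0.40. For Psmd11 the ratios were -0.77 and -0.53 by one probe set (12817 and 8972 scaled units in wild type, 7501 and 6230 in the mutant) and -0.03 and 0.39 by the other (9213 and 5803, 9002 and 7613). For the ATPase Psmc3 the brightest probe set gave -0.23 and -0.03, a second gave -0.43 and -0.19, and the last gave 1.08 and 1.25. The first and second of these differed by 0.20 and 0.16. The last set read 982 and 869 in wild type, 2082 and 2069 in Clock mutant liver and 742 and 1043 in Cry-deficient liver. It is marked f, for shared sequence within a gene family, and so is the brightest set, so the letter does not separate them. The probe sets of Psmb1 lay closer, at 0.46 and 0.10 by the brighter and 0.31 and -0.06 by the other, 0.14 and 0.15 apart.

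By contrast the probe sets of Psmb5 differed by at most 0.03 in any time ratio. Over the 6 pairs of probe sets of proteasome genes, the median absolute disagreement was 0.74 at CT02 and 0.82 at CT14 for the Clock mutant over wild type. It was 0.17 for time in wild type, 0.11 for time in the Clock mutant and 0.23 for time in the Cry-deficient arrays, and 0.28 and 0.15 for Cry-deficient over wild type at CT02 and CT14. Over 429 genes with such a pair, the medians were 0.47 and 0.34 for the Clock mutant over wild type, 0.20, 0.36 and 0.28 for time, and 0.31 and 0.22 for Cry-deficient over wild type. Thus the calls of Psmb5 and Psmd11 as low in the Clock mutant hold for 1 of their probe sets each. The same is true of Psmb1 as high: its other probe set read 6227 and 5872 scaled units in wild type, 7744 and 5642 in Clock mutant liver and 6240 and 5960 in Cry-deficient liver, lowest on the Clock mutant CT14 array. The pairs of a gene share that gene's RNA, and 3 of the 6 pairs belong to Psmc3.

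**Figure D4:**
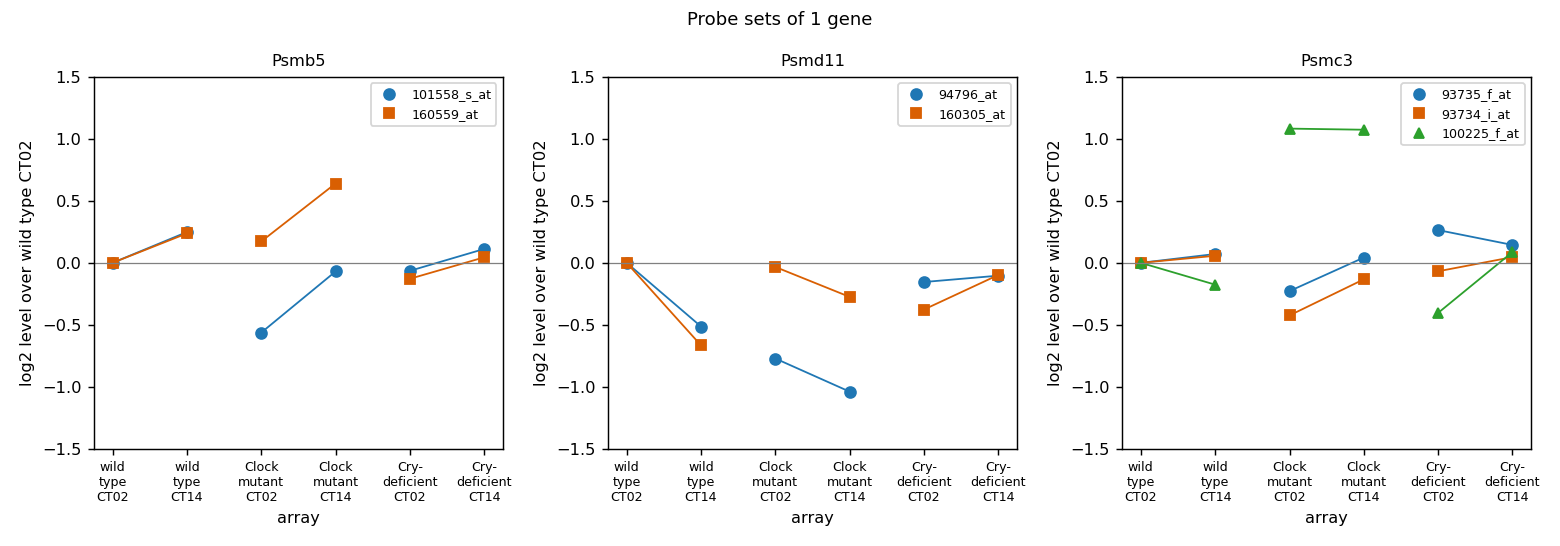
Log2 level over wild type CT02 of each probe set above the floor of Psmb5, Psmd11 and Psmc3 on the 6 arrays, with lines joining the arrays of a genotype. The probe sets of a gene lie together in wild type for Psmb5 and Psmd11 and apart in the Clock mutant, where the lines stay nearly parallel.

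Cry-deficient livers were closer to wild type. The median ratio was 0.02 at CT02 and 0.01 at CT14. At CT02, 3 of 42 genes were at least 1.5-fold apart, against 21.1% of all genes and 14.9% of those of like level, with 1 higher (8.92% of all genes) and 2 lower (12.2%). At CT14 0 were, against 15.5% and 9.26%. None was 1.5-fold apart at both times in 1 direction, where 1.84% of all genes were higher and 2.04% lower. Psmd3 was 5416 scaled units in wild type and 2851 in Cry-deficient liver at CT02 (-0.93), and 4959 and 4824 at CT14 (-0.04). Psmd12 was 1163 and 735 at CT02 (-0.66) and 996 and 1167 at CT14 (0.23). Psme3 was higher at CT02, 1451 against 2269 (0.65), and not at CT14, 2046 against 1624 (-0.33).

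The lid as a class had a median ratio of -0.29 at CT02, with 6 of 8 genes lower, and of 0.15 at CT14, with 5 of 8 higher. At CT14 the largest ratios were those of Psmb10 (4610 in wild type, 3266 in Cry-deficient liver, -0.50), the ATPase Psmc2 (7086 and 9748, 0.46) and Psme3ip1 (1732 and 2350, 0.44). Both Cry-deficient arrays lay below all 4 others in 5 genes (11.9%, against 10.1% of all genes) and above in 4 (9.52%, against 10.2%). Of the 5 low genes 4 were alpha subunits, Psma2, Psma3, Psma4 and Psma7, and the fifth was the lid subunit Psmd8. Psma2, Psma4, Psma7 and Psmd8 were also among the genes with both Clock mutant arrays on the high side, so in these 4 the order was Clock mutant, wild type, Cry-deficient. The high side alone held 16.9% of all genes. The share of all genes with this full order was not counted, so nothing is read from these 4. Sizes were small, 1.10-fold for Psma2, 1.13-fold for Psma3, 1.09-fold for Psma4, 1.24-fold for Psma7 and 1.33-fold for Psmd8, and after lowess correction or quantile normalization the genes on the low side were Psma2, Psma7 and Psmd8 in both settings. Without the Cry-deficient CT02 array, the CT14 array alone lay below the 4 arrays of the other genotypes in 7 genes (16.7%, against 17.8% of all genes) and above them in 7 (16.7%, against 18.4%).

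Each immune subunit was set beside the constitutive subunit it replaces, as ratios within a gene. Psmb8, which replaces Psmb5, read 3957 and 4403 scaled units in wild type (CT02, then CT14), 4906 and 4373 in Clock mutant liver and 4623 and 3364 in Cry-deficient liver. Psmb9, which replaces Psmb6, read 1032 and 896, 1602 and 1308, and 1275 and 1170. Both Clock mutant arrays were highest for Psmb9, by 0.04 (log2) over the Cry-deficient CT02 array, and both wild type arrays lowest. After lowess correction or quantile normalization, the Clock mutant arrays no longer both lay above the others for Psmb9. For Psmb8 the genotypes overlapped. Psmb10, which replaces Psmb7, read 3423 and 4610, 2471 and 4202, and 3566 and 3266, also with overlapping genotypes.

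Of the constitutive partners, Psmb6 and Psmb7 had smaller ranges over the arrays (0.37 and 0.50, log2) than the subunits that replace them (0.84 and 0.90), and Psmb5 a larger one (0.81, against 0.54 for Psmb8). Psmb6, with the caspase-like site, read 6602 and 7303 scaled units in wild type, 6856 and 7151 in Clock mutant liver and 8537 and 7507 in Cry-deficient liver. Psmb7, with the trypsin-like site, read 8420 and 9347, 10097 and 7771, and 10997 and 8361. For the Psmb9 and Psmb6 pair, the log2 ratio of Clock mutant over wild type was higher in the immune subunit by 0.58 at CT02 and by 0.58 at CT14. For Psmb8 and Psmb5 it was higher by 0.87 and 0.31, which rests on the brighter Psmb5 probe set, and for Psmb10 and Psmb7 the difference was -0.73 at CT02 and 0.13 at CT14. By the brightest probe sets all 3 differences were above 0 at CT14, and at CT02 that of Psmb10 was below 0. By the other Psmb5 probe set the difference from Psmb8 was below 0 at CT14, with ratios of -0.01 for Psmb8 and 0.40 for that set. At CT02 it stayed above 0, with 0.31 and 0.17.

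**Figure D5:**
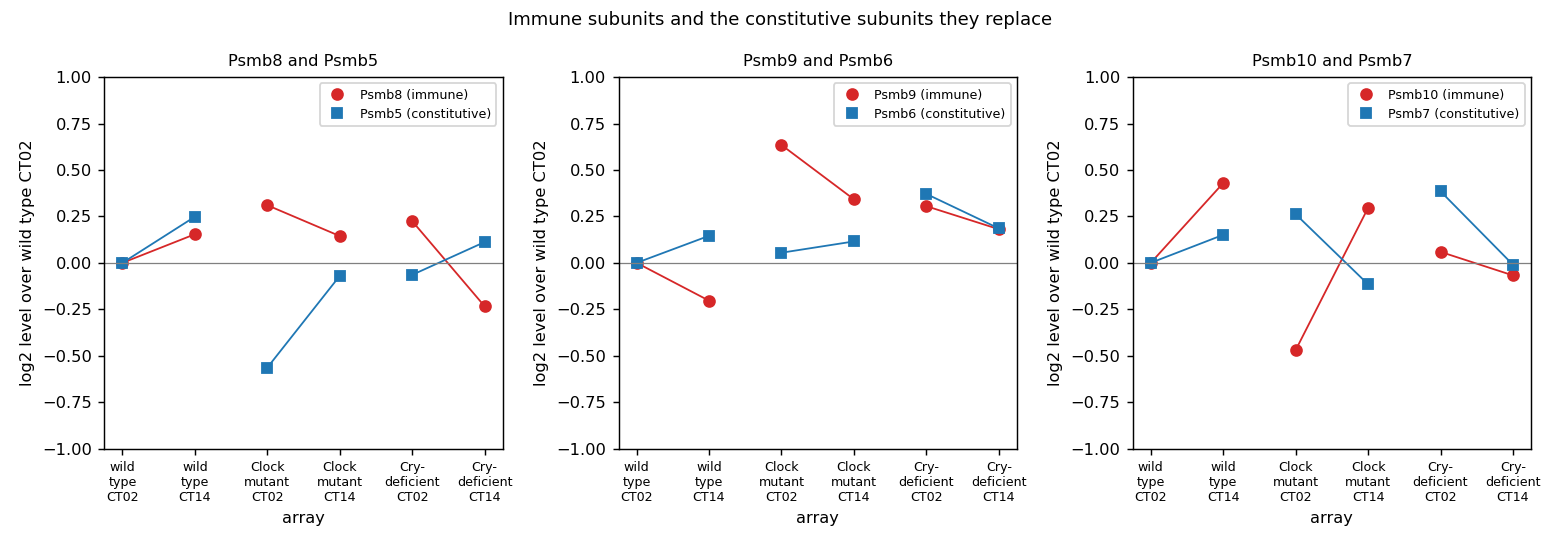
Log2 level over wild type CT02 of each immune subunit (red circles) and the constitutive subunit it replaces (blue squares) on the 6 arrays, with lines joining the arrays of a genotype. Psmb9 lies above Psmb6 on both Clock mutant arrays, and Psmb8 above the brighter Psmb5 probe set. On the same arrays Psmb10 lies below Psmb7 at CT02 and above it at CT14.

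Immune subunits are also made by the liver's immune cells, so marker genes of these cells are given beside them. The summed level of 6 leukocyte markers, of which 3 or 4 were above the floor, was 9754 and 8011 scaled units in wild type, 5609 and 4909 in Clock mutant liver and 15322 and 8327 in Cry-deficient liver. The sum of 12 macrophage markers, 10 to 12 of them above the floor, was 40018 and 37816, 30074 and 31555, and 53708 and 42315. The sum of 4 markers of antigen-presenting cells, 2 to 4 above the floor, was 12906 and 13610, 6103 and 6340, and 19873 and 14620. These 3 sums were lowest on the Clock mutant arrays, where Psmb9 was highest by a small margin, and highest on the Cry-deficient CT02 array. Values below 0 counted as 0 in the sums. Single markers went both ways. At CT02, 3 of 12 macrophage markers were higher in the Clock mutant, among them C1qa (4779 in wild type, 6165 in the mutant). Of 3 kept leukocyte markers 1 was, Cd52 (1721 and 2269). On the Cry-deficient CT02 array C1qa read 1508.

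Of 7 T and NK cell markers 0 or 1 was above the floor on an array, of 4 B cell markers 2 or 3, and of 5 neutrophil markers 1 or 2. The sums of these lists went the other way, each highest on the Clock mutant CT02 array. They were 1264, 9062 and 6892 scaled units there, against 1092, 6797 and 2695 in wild type at CT02. A single gene made up most of each sum there: Il2rb (905), Ms4a1 (7367) and Camp (5409). At CT14 the sums were 860, 7366 and 2842 in Clock mutant liver and 692, 7299 and 2824 in wild type. In 21 kept genes of interferon response and antigen presentation, the median ratio of Clock mutant over wild type was 0.23 at CT02 and -0.14 at CT14, with 2 genes at least 1.5-fold higher (12.9% of all genes) and 5 lower (17.9%) at CT02. At CT14 these counts were 2 (12.2%) and 4 (13.4%). The median for Cry-deficient over wild type was 0.07 and -0.05. Psme1, whose protein joins Psme2 in the interferon-induced activator, read 6244 and 6006 scaled units in wild type, 6042 and 6884 in Clock mutant liver and 6519 and 6649 in Cry-deficient liver, a range of 0.20 (log2). The part of immune cell numbers in the values of the immune subunits was not tested.

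Proteins that bind the proteasome bring it substrates or trim their ubiquitin. Of 17 such factors listed, 11 were found and kept, with a median ratio of 0.01 for time in wild type, -0.26 for time in the Clock mutant and 0.10 for time in the Cry-deficient arrays. The median of Clock mutant over wild type was 0.17 at CT02 and -0.24 at CT14, with 2 factors at least 1.5-fold higher (12.9% of all genes) and 2 lower (17.9%) at CT02. At CT14 these were 0 (12.2%) and 1 (13.4%). Cry-deficient over wild type had medians of -0.02 and 0.09. The deubiquitinase Usp14, which trims ubiquitin at the base, read 2656 and 2438 scaled units in wild type, 1815 and 1520 in Clock mutant liver and 3928 and 3536 in Cry-deficient liver, so the genotypes did not overlap. Of all genes, 16.5% had both Clock mutant arrays below all others and 10.2% both Cry-deficient arrays above. The share with both was not counted, and Usp14 was picked after its values were seen. The deubiquitinase Uchl5 read 713 at CT02 and 1501 at CT14 in wild type, and 1165 to 1404 on the other 4 arrays.

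Upstream, 16 of 21 ubiquitin-conjugating enzymes were kept, with median ratios of -0.06, 0.07 and 0.22 for time in wild type, the Clock mutant and the Cry-deficient arrays. Their medians were -0.03 and 0.14 for the Clock mutant over wild type, with 1 at least 1.5-fold higher and 3 lower at each time. Of all genes, 12.9% were higher and 17.9% lower at CT02, and 12.2% and 13.4% at CT14. Of 12 listed genes of ubiquitin activation and extraction 5 were found and 4 kept, and their median was -0.42 at CT02 and -0.01 at CT14 for the Clock mutant over wild type. No gene of ubiquitin itself had a probe set with a single symbol.

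Of 9 transcription factors of proteasome genes and their regulators, 8 were kept, all but Keap1, the adaptor that marks Nfe2l2 for degradation. They had a median ratio of Clock mutant over wild type of -0.18 at CT02 and -0.15 at CT14. Nfe2l1, which raises proteasome genes when the proteasome is inhibited, read 6177 and 6344 scaled units in wild type, 4584 and 6484 in Clock mutant liver and 5007 and 6064 in Cry-deficient liver. Nfe2l2, the oxidative stress factor, read 3561 and 3849, 5141 and 4072, and 4041 and 2979. In 8 kept target genes of Nfe2l2 the median ratio of Clock mutant over wild type was 0.06 at CT02 and 0.53 at CT14, where 4 were at least 1.5-fold higher (12.2% of all genes) and 1 lower (13.4%). The proteasome genes had medians of 0.05 and -0.00 in the same comparisons.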

How the data were processed

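Liver RNA was measured on 6 one-colour arrays, 1 per group, with groups taken from the sample titles. Each probe set has 1 deposited intensity on each array, written by the authors in whole numbers with negative values (21.5% to 24% of probe sets at or below 0), as read from the values. Neither the software nor the background step is given in the sources used here. Names of probe sets came from the platform annotation (10855 with 1 symbol, 396 with several, 1237 with none), and those with several or none were not used.

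Arrays were scaled by their median ratio to the geometric mean over 6065 bright probe sets, values under 606.2 were set to it, and a gene took its brightest probe set. The members, gene lists, motifs and rules were chosen with earlier results of these data known. Values on every array are given for the immune subunits and the core subunits they replace, and for Psme1 and Psme3. For genes 2-fold apart, and for up to 3 genes with the largest ratio in each comparison, values are given at least on the arrays compared. Genes named for their place in a same-direction or apart-from-all-others count, for their probe sets, for an E-box, or as Psmc4, Psma5, Uchl5 and Usp14, were chosen after their values were seen. An additive fit of genotype and time was not used as a test, because its error is the difference of time effects between genotypes. The number of arrays limits the precision. Symbols were compared with RefSeq (GRCm38.p6), whose promoter windows gave the sequences. The procedure was tested on simulated data. Python 3.11.15, numpy 2.4.6, pandas 2.3.3, statsmodels 0.14.6 and matplotlib 3.10.9 were used. Alternatives were the intensities as deposited, quantile normalization, lowess correction (span 0.3), floors and filters at the 25th and 75th percentile respectively, the absence of a filter, a mean over probe sets, only probe sets with no letter in their name, a 2-fold threshold, and scaling without the Clock mutant CT02 or the Cry-deficient CT02 array.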

Additional observations from a re-analysis of the deposited data

Results flagged for a closer look

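Values on the Clock mutant arrays drew attention in 2 probe sets that the gene-level comparisons did not use, each at least 2-fold above wild type at the same time. The third probe set of Psmc3 read 2082 scaled units on the Clock mutant CT02 array and 2069 on the Clock mutant CT14 array, against 982 and 869 in wild type, while the other probe sets of the gene were lower than wild type at both times. The probe set of Psmc4 read 1322 on the Clock mutant CT02 array, against 213 in wild type, which is below the floor. Groups of 1 array allow no check for an array that lies far from its replicates.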

How the results depend on the processing

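The median log2 ratio of the proteasome genes, relative to that of all genes, stayed within 0.1 of its value in the 7 comparisons under all 66 alternative values computed. Unscaled, the median of all genes lay at 0.45 for time in the Clock mutant, 0.20 for time in the Cry-deficient arrays, -0.52 and -0.11 at CT02 for the Clock mutant and Cry-deficient arrays over wild type, and at -0.09 to 0.03 in the other 3. Counts past 1.5-fold moved by over 1.5 times under 22 of 73 alternatives. A floor at the 25th percentile gave 6 for time in the Clock mutant, 8 at CT14 for Clock mutant over wild type, 5 and 3 for Cry-deficient over wild type at CT02 and CT14, and 3 for time in wild type. As deposited, the counts were 11 for time in the Clock mutant, 9 for time in the Cry-deficient arrays and 19 at CT02 for Clock mutant over wild type. A filter at the 75th percentile gave 2 and 1 at CT02 and CT14 for Clock mutant over wild type, 2 for time in the Cry-deficient arrays and 1 for Cry-deficient over wild type at CT02. Lowess correction gave 5 for time in the Clock mutant, quantile normalization 2 for time in the Cry-deficient arrays, the mean over probe sets 1 for time in wild type, and probe sets with no letter 3 at CT14 for Clock mutant over wild type and 2 for time in the Cry-deficient arrays. At 2-fold, time in the Clock mutant, time in the Cry-deficient arrays and Cry-deficient over wild type at CT02 had 0, and Clock mutant over wild type 2 at each time. Counts of a genotype's arrays apart from the other 4, and of the same direction in all genotypes, were recomputed under alternatives added after seeing the data. As deposited, both Clock mutant arrays lay above in 2 genes, both Cry-deficient arrays above in 8 and below in 1, and the last count was 3 with lowess correction and 3 with quantile normalization. The count higher at CT14 in all 3 genotypes was 5 with quantile normalization, and the count lower was 5 with the filter at the 75th percentile. For the counts of the same direction, ratios were taken relative to the median of all genes kept under each setting. That median also moved with the setting. The cause of the moves in the counts was not tested, beyond that shift and fewer genes or probe sets being counted under the stricter settings. No paired analysis was possible because each group has 1 array and the labels give no replicate numbers. Signal over background limits the dim genes, Psmg2, Psmg3, Psmd12 and Psmc4 above all.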
